A study of Mus musculus with 19 samples.

Results

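The replication-dependent histone genes were followed in hippocampal microglia of the mouse, as all genes whose symbol starts with Hist, a cluster number and h, followed by the histone type. This rule used symbols alone and took 67 of the 23951 rows (0.28%) in each of 2 deposited tables of FPKM (fragments per kilobase of transcript and library size). By type they are 6 genes of the linker histone H1, 18 of H2A, 18 of H2B, 12 of H3 and 13 of H4. The H2B genes include Hist3h2bb-ps, whose symbol marks a pseudogene. A RefSeq gene table of GRCm38.p6, which lists these genes under newer symbols, placed 52 on chromosome 13, 10 on chromosome 3, 3 on chromosome 11 and 1 on chromosome 6. The remaining gene, Hist1h2ap, is an older symbol of more than 1 RefSeq gene and was placed on no chromosome.

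Histones H2A, H2B, H3 and H4 form the core around which DNA is wound, and H1 binds where the DNA enters and leaves it. The clustered genes are transcribed mainly in S phase, when new DNA needs new histones. Their transcripts classically end in a stem-loop bound by SLBP and carry no poly(A) tail, although some of these genes also give polyadenylated transcripts in cells that no longer divide. Adult microglia divide rarely in the healthy brain and can proliferate after injury or depletion.

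RNA of sorted CD11b and CD45 microglia was measured in 15 libraries, 3 for each of 5 groups. At 3 months, the labelled PU.1 cKO group (conditional knockout, PU.1 fl/fl with Cx3cr1CreER+/-) was set against the labelled control group, which carries Cx3cr1CreER+/- alone. Both received tamoxifen at 50 mg/kg on each of 5 days, and the brains were collected after 1 further week. In the older set, at 4.5 months, the groups were CK-p25 PU.1 cKO, CK-p25 and CK, collected 6 weeks after p25 induction. CK-p25 mice can be induced to make p25, an activator of the kinase Cdk5, in forebrain neurons, and CK mice carry the driver of that system without p25. The Cre of Cx3cr1CreER+/- is made in cells that express Cx3cr1, which includes other macrophages and monocytes as well as microglia. All 5 groups carried this Cre and received tamoxifen.

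Spi1, the gene of PU.1, went against the labels at 3 months. It had 409, 338 and 337 FPKM in labelled PU.1 cKO libraries, against 261, 105 and 248 FPKM in labelled control libraries. The difference was 0.92 ± 0.35 on the log2(FPKM + 1) scale (standard error, SE), with an adjusted p of 0.0853 (limma). The values did not overlap between the groups. The labels of this set also contradict each other, since the table columns named for PU.1 are assigned to the samples titled as wild type. If the columns are named rightly and the titles are not, every 3-month difference given here changes sign. At 4.5 months Spi1 had 165, 152 and 224 FPKM in the CK-p25 PU.1 cKO libraries, 251, 208 and 298 FPKM in CK-p25 libraries and 256, 230 and 251 FPKM in CK libraries. The log2 difference of CK-p25 PU.1 cKO over CK-p25 was -0.49 ± 0.17, with an adjusted p of 0.745 (limma).

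Read numbers are unknown, since FPKM divides them by transcript length and library size. The value of 1 fragment, estimated from genes at their lowest steps relative to replicate 1 of a table's cKO group, was 1, 0.898 and 1.01 in labelled PU.1 cKO libraries and 0.921, 0.763 and 0.822 in labelled control libraries. A lower value means a finer step and a more deeply sequenced library, so by this estimate the labelled control libraries tended to be deeper. The share of genes listed at 0 did not separate these groups, at 39.7% to 41.7% in labelled PU.1 cKO and 38.7% to 42.9% in labelled control. At 4.5 months it ran from 0.893 to 1.01 in 8 libraries and was 1.30 in CK-p25 replicate 3. That library is the only 1 of the 9 whose description carries another run name, and 42.1% of its genes are listed at 0. The 7 microglia markers, among them P2ry12 and Cx3cr1, summed to 26916 to 31393 FPKM in labelled PU.1 cKO libraries and 7643 to 14291 FPKM in labelled control libraries. At 3 months 6 of these 7 were higher in labelled PU.1 cKO and none was lower (limma, adjusted p under 0.05). At 4.5 months they summed to 14795 to 16730 FPKM in CK-p25 PU.1 cKO, 16084 to 17878 in CK-p25 and 24565 to 27006 in CK. Whether the 3 libraries of a group are 3 animals is not stated in the labels, and each p-value rests on the spread between libraries, part of which can be technical.

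Most members were near the limit of detection. At 3 months, 12 members were listed at 0 in every library and 17 were above 0 in every library. At 4.5 months these counts were 8 and 19. A mean of at least 1 FPKM over the libraries of a table was required for a test, which left 20 members at 3 months and 14 at 4.5 months. At 3 months the gene just inside was Hist1h4h, with a mean of 1.06 FPKM, and the gene just outside was Hist1h3d, with 0.989 FPKM. At 4.5 months they were Hist1h4h at 1.06 FPKM and Hist1h2be at 0.988 FPKM. No H3 gene passed in either table. Members of a type are close copies of each other, so the assignment of reads between them by the authors' software is uncertain. The cDNA kit named in the labels starts from the poly(A) tail, and what part of each gene's transcripts it captured was not tested.

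A few members carried most of each type's signal. In labelled PU.1 cKO libraries Hist3h2a made up 94.7% of the summed H2A FPKM, against 56.9% in labelled control libraries. Hist1h2bc made up 75.2% of the H2B sum in labelled PU.1 cKO libraries and 76.1% in labelled control libraries, and between 81.6% and 88.1% in the 3 groups at 4.5 months. Hist1h4d made up 49.8% of the H4 sum in labelled PU.1 cKO libraries and 65.8% in labelled control libraries, and between 70.0% and 80.2% at 4.5 months. Among the H1 genes Hist1h1c led in labelled PU.1 cKO (63.0%), labelled control (45.2%), CK-p25 PU.1 cKO (60.5%) and CK-p25 (69.5%). In CK the leading H1 gene was Hist1h1e, with 50.7%. The 12 H3 genes together reached only 0.167 to 7.14 FPKM per library.

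The promoters of 60 of the 67 members were found in a RefSeq table for GRCm38.p6, which holds 250 bases before to 50 bases after each start. They were searched on both strands for CCAAT, the octamer ATTTGCAT, TATAAA and the E2F core. Of the E2F core only TTTGGCGC, TTTCCCGC, TTTGGCGG and TTTCCCGG were searched. None of these strings contains another. CCAAT was in 51 of the 60 (85%), against 37.4% of all 32851 promoters in the table. It was in every H1, H2A, H2B and H3 promoter found (6, 17, 15 and 10) but in 3 of 12 H4 promoters. The octamer was in 13 (21.7%, against 1.74% of all promoters), of which 7 were H2A and 6 were H2B. TATAAA was in 35 (58.3%, against 13.6%), and a searched form of the E2F core in 1 (1.67%, against 3.32%). Related forms such as TTTCGCGC, which lies in the Hist1h2an window among others, were not searched. The E2F count therefore does not show how many of these promoters hold such a core. A match of letters is a description and not a site. The promoters below belong to members whose values differed past the threshold in some comparison, with motif letters in capitals (ATTGG and ATGCAAAT are CCAAT and the octamer read on the other strand, and TTTATA is TATAAA).
Hist1h1b, chr13:21780576-21780875 (- strand): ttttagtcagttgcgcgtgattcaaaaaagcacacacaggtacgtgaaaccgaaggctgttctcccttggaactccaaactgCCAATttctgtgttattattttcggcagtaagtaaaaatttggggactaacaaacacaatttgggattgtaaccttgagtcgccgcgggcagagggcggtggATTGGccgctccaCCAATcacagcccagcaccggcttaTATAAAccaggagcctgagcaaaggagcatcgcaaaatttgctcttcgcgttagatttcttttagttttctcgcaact
Hist1h2ae, chr13:23571171-23571470 (- strand): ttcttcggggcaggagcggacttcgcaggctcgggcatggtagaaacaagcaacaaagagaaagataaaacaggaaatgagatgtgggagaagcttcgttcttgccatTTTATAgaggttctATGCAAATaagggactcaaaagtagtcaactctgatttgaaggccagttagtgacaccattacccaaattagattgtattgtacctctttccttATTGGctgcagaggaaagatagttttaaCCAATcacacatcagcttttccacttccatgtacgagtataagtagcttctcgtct
Hist1h2ab, chr13:23750838-23751137 (+ strand): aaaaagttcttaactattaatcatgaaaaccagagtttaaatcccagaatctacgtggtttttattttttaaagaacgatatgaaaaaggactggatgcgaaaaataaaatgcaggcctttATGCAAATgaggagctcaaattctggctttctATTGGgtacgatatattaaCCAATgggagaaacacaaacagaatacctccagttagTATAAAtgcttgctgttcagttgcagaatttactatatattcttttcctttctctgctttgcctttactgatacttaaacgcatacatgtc
Hist2h2ac, chr3:96220831-96221130 (- strand): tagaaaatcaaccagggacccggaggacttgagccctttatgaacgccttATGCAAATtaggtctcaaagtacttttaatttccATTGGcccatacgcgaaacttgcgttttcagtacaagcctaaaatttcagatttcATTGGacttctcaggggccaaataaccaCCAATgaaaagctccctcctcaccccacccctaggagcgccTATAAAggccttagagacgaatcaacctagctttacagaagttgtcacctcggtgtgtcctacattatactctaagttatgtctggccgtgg
Hist3h2a, chr11:58954435-58954734 (+ strand): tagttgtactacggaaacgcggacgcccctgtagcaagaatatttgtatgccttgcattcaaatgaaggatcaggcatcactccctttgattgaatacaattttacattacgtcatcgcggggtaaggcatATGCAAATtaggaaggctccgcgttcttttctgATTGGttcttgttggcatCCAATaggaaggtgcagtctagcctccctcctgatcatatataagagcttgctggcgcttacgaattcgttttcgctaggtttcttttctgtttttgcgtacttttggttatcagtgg
Hist1h1c, chr13:23738557-23738856 (+ strand): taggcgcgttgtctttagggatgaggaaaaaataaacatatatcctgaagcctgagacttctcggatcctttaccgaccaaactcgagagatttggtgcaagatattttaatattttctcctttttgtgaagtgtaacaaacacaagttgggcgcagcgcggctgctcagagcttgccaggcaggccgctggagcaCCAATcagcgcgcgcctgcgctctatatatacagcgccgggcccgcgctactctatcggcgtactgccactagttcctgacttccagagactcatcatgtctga
The first 4 are the promoters found for genes that were lower in labelled PU.1 cKO at 3 months. All 4 hold CCAAT and TATAAA, and 3 hold the octamer. In Hist1h2ae the TATAAA and the octamer are both read on the other strand, and the same bases lie in the window of its neighbour Hist1h2bg. Hist3h2a, the member that was higher in labelled PU.1 cKO at 3 months, holds CCAAT and the octamer without TATAAA. Hist1h1c, which was higher in CK-p25, holds CCAAT alone. Among called members whose promoters are not printed, Hist1h2bg, higher in CK-p25 PU.1 cKO over CK, holds CCAAT, the octamer and TATAAA. Hist1h1e, lower in CK-p25 over CK, holds CCAAT and TATAAA.

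At 3 months, members of the H1, H2A and H2B families were lower in labelled PU.1 cKO than in labelled control, and no H4 gene passed the test. In all 6 of the 20 tested members were lower and 1 was higher (limma, adjusted p under 0.05). Among all 10845 genes tested, 17.8% were lower and 12.4% were higher. Of the 6 lower members 3 (Hist1h1b, Hist1h2ab and Hist2h2ac) averaged under 1 FPKM in labelled PU.1 cKO and reached the test only through their labelled control values, so they could be called in 1 direction only. The median log2 difference was -0.27 over the tested members and -0.03 over all genes. As a share of all FPKM in a library, the 67 members made up 0.0223%, 0.0324% and 0.0276% in labelled PU.1 cKO, against 0.0335%, 0.0395% and 0.0423% in labelled control.

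Hist1h1b, a linker histone gene, showed the lowest log2 difference of the tested members. It had 0, 0.192 and 0.216 FPKM in labelled PU.1 cKO libraries, against 18.7, 5.55 and 27.6 FPKM in labelled control libraries. In estimated fragments these are 0, 1 and 1 against 95, 34 and 157, so the gene was at or near its floor in every labelled PU.1 cKO library. The log2 difference was -3.77 ± 0.51 (SE), with an adjusted p of 0.00244 (limma, n = 3 each), and it ran from -4.39 to -3.33 when each library was left out in turn. The other H1 genes moved less. Hist1h1c had 12.1, 20.0 and 15.9 FPKM in labelled PU.1 cKO libraries, against 20.8, 29.8 and 20.5 FPKM in labelled control libraries. Its log2 difference of -0.54 ± 0.24 did not pass (adjusted p 0.122, limma), although the values of the 2 groups did not overlap. Hist1h1e had 6.78, 7.85 and 7.49 FPKM in labelled PU.1 cKO and 8.05, 6.67 and 13.1 FPKM in labelled control. Hist1h1e (log2 difference -0.25, adjusted p 0.468) and Hist1h1d (0.04, adjusted p 0.939) had overlapping groups (limma).

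**Figure D1:**
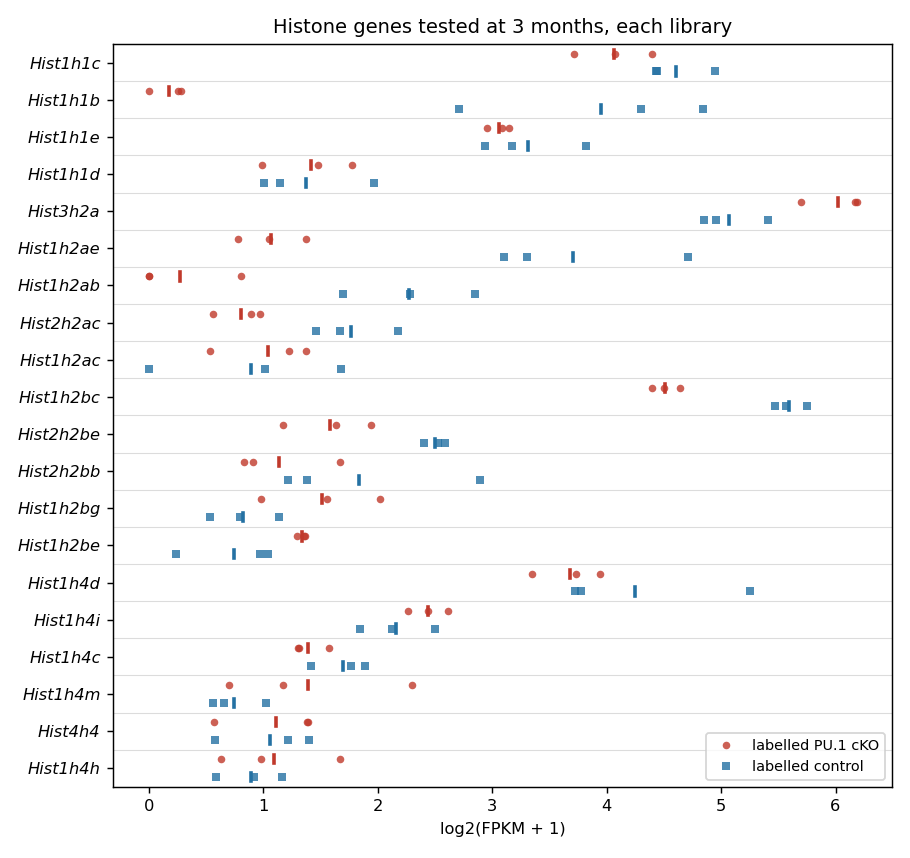
Level of each of the 20 histone genes tested at 3 months, as log2(FPKM + 1) on the horizontal axis, with a point for each library and a bar for the group mean. Hist1h1b, Hist1h2ae and Hist1h2ab sit near the floor in all 3 labelled PU.1 cKO libraries and between 2.24 and 27.6 FPKM in labelled control libraries, while Hist3h2a lies the other way.

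The H2A genes went in both directions. Hist1h2ae had 1.07, 1.60 and 0.718 FPKM in labelled PU.1 cKO libraries, against 8.86, 7.61 and 25.2 FPKM in labelled control libraries. Its log2 difference was -2.64 ± 0.43, with an adjusted p of 0.00489 (limma), and 0.0538 with no filter on low values. Hist1h2ab was listed at 0 in 2 labelled PU.1 cKO libraries and at 0.752 FPKM in the other, against 3.86, 2.24 and 6.20 FPKM in labelled control libraries (-2.00 ± 0.39, adjusted p 0.00912, limma). With no filter its adjusted p was 0.0628 (limma). Both calls held without any 1 library. Hist2h2ac, from the chromosome 3 cluster, had 0.477, 0.857 and 0.962 FPKM in labelled PU.1 cKO and 1.76, 2.19 and 3.53 FPKM in labelled control. It was just past the threshold at -0.96 ± 0.29 (adjusted p 0.0415, limma). That call was lost without labelled PU.1 cKO replicate 1 (log2 difference -0.84), 2 (-1.00) or 3 (-1.04), or labelled control replicate 3 (-0.76).

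Hist3h2a, from a small cluster on chromosome 11, was the most abundant H2A gene and was higher in labelled PU.1 cKO. It had 51.0, 71.9 and 71.1 FPKM in labelled PU.1 cKO libraries, against 27.9, 41.5 and 30.0 FPKM in labelled control libraries. The log2 difference was 0.95 ± 0.22 (adjusted p 0.0184, limma) and the groups did not overlap. The call was lost without labelled PU.1 cKO replicate 2 (log2 difference 0.86) or 3 (0.87) or labelled control replicate 1 (0.84). With genes in both directions, the summed H2A level overlapped between the groups, at 55.0 to 76.7 FPKM in labelled PU.1 cKO and 45.4 to 73.0 FPKM in labelled control. The H1 sum did not overlap, at 21.3 to 29.5 FPKM in labelled PU.1 cKO and 43.0 to 64.8 FPKM in labelled control.

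Of the H2B genes, Hist1h2bc was the most abundant and had tightly grouped values. It had 20.0, 21.7 and 24.0 FPKM in labelled PU.1 cKO libraries, against 52.8, 43.3 and 46.4 FPKM in labelled control libraries. The log2 difference was -1.08 ± 0.16 (adjusted p 0.00372, limma), and it passed without any 1 library (-1.15 to -1.00). Hist2h2be, from the chromosome 3 cluster, had 1.26, 2.12 and 2.85 FPKM in labelled PU.1 cKO and 4.30, 4.76 and 5.00 FPKM in labelled control (-0.92 ± 0.25, adjusted p 0.0309, limma). That call was lost without labelled PU.1 cKO replicate 1 (log2 difference -0.71) or 2 (-0.94), or labelled control replicate 1 (-0.97) or 3 (-0.88). Hist2h2bb had 2.18, 0.784 and 0.879 FPKM in labelled PU.1 cKO and 1.61, 1.33 and 6.45 FPKM in labelled control. The other 3 tested H2B genes did not pass, with log2 differences of -0.70 for Hist2h2bb, 0.70 for Hist1h2bg and 0.59 for Hist1h2be. Hist1h2be had 1.55, 1.58 and 1.46 FPKM in labelled PU.1 cKO and 0.959, 1.05 and 0.181 FPKM in labelled control, with no overlap. The H2B sum was 27.5 to 30.7 FPKM in labelled PU.1 cKO and 54.2 to 69.4 FPKM in labelled control, with no overlap.

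None of the 6 tested H4 genes passed the test. They are separate genes for the same protein. Hist1h4d had 9.17, 14.4 and 12.3 FPKM in labelled PU.1 cKO libraries, against 12.7, 12.2 and 37.1 FPKM in labelled control libraries, where replicate 3 stood high. Its log2 difference was -0.57 ± 0.42 (adjusted p 0.320, limma). Hist1h4i had 4.42, 5.11 and 3.82 FPKM in labelled PU.1 cKO and 4.66, 3.38 and 2.60 FPKM in labelled control, a difference of 0.28 (adjusted p 0.382, limma). Hist1h4c had 1.47, 1.98 and 1.48 FPKM in labelled PU.1 cKO libraries, against 2.70, 1.68 and 2.41 FPKM in labelled control libraries. Its values overlapped between the groups, as did those of the other H4 genes. On the log2 scale Hist1h4c lay at -0.30, Hist1h4m at 0.65, Hist1h4h at 0.20 and Hist4h4 at 0.05. The median over the 6 was 0.13. The H3 genes gave too little signal for a test: their sum was 3.11, 1.82 and 2.66 FPKM in labelled PU.1 cKO, against 4.55, 2.43 and 7.14 FPKM in labelled control. Hist1h3d, the highest H3 gene, had 0, 0.377 and 2.12 FPKM in labelled PU.1 cKO and 0.774, 1.28 and 1.38 FPKM in labelled control. Hist1h3e had 1.42, 1.28 and 0 FPKM in labelled PU.1 cKO and 1.31, 0.361 and 0 FPKM in labelled control. Both H3 genes overlapped between the groups. Hist1h3i was listed at 0 in all 3 labelled PU.1 cKO libraries and had 1.66, 0 and 2.60 FPKM in labelled control.

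Detection of the weakly covered members also differed. Of the 67 members 27, 26 and 23 were above 0 in labelled PU.1 cKO libraries, against 36, 35 and 47 in labelled control libraries. In all, 6 members (Hist1h2ag, Hist1h2ai, Hist1h2ak, Hist1h2bk, Hist1h2bn and Hist1h2bp) were listed at 0 in all labelled PU.1 cKO libraries and above 0 in all labelled control libraries. This pattern held for 84 of the 23951 genes (0.351%), and the reverse pattern for 92 genes and no member. All 6 are H2A or H2B genes of the chromosome 13 cluster. Their values are small: where they came out as whole fragments, a labelled control library held an estimated 1 to 5 of them. The finer fragment value of the labelled control libraries moves with this result, and its part in it was not tested.

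**Figure D2:**
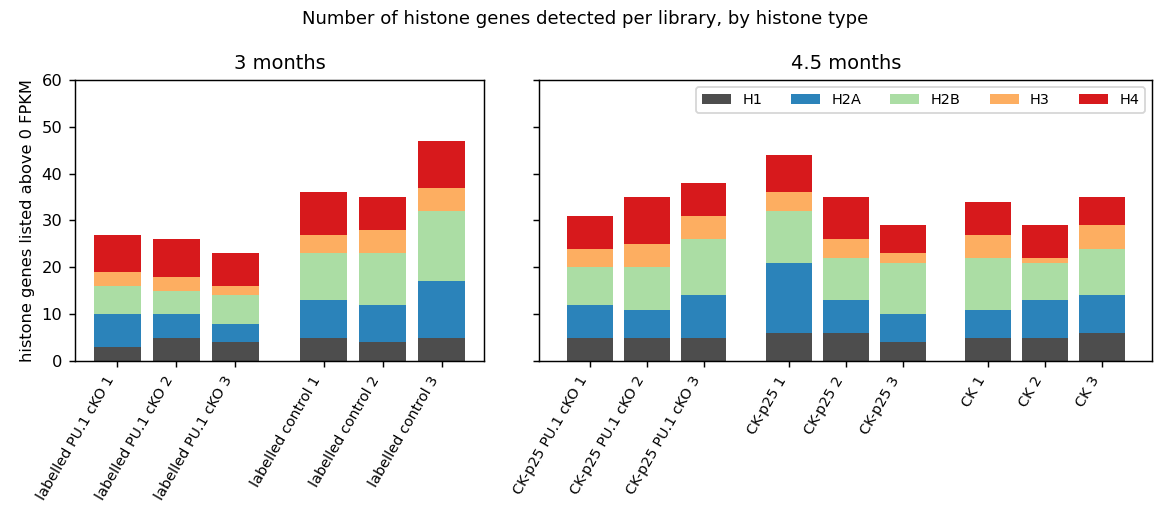
Number of the 67 histone genes listed above 0 FPKM in each library (vertical axis), stacked by histone type, for the 3-month set on the left and the 4.5-month set on the right. The 3 labelled PU.1 cKO libraries reach 23 to 27 genes and the 3 labelled control libraries 35 to 47, while the 3 groups at 4.5 months overlap.

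Genes that share the histone genes' place in the cell cycle were lower as well. Of 18 genes of S phase 17 were lower in labelled PU.1 cKO and none was higher, with a median log2 difference of -3.06. Rrm2, a subunit of ribonucleotide reductase, had 1.34, 1.04 and 1.16 FPKM in labelled PU.1 cKO libraries, against 192, 80.9 and 240 FPKM in labelled control libraries (-6.16 ± 0.38, adjusted p 0.000126, limma). Top2a, which untangles replicated DNA, lay at -4.68, and the cyclins Ccna2 and Ccne1 at -4.38 and -4.04 on the log2 scale. The member that did not pass was Cdk2, at -0.88.

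Histone variants whose genes lie outside the clusters were lower too. Of 9 tested histone genes outside the clusters 8 were lower in labelled PU.1 cKO and none was higher, with a median log2 difference of -1.29. Cenpa, the centromeric H3, lay at -4.58, the DNA damage-linked H2afx at -3.48, H2afz at -2.52 and H2afv at -1.29 on the log2 scale. H2afz had 229, 197 and 233 FPKM in labelled PU.1 cKO libraries, against 1368, 758 and 1947 FPKM in labelled control libraries, which is above any clustered histone gene. H3f3b, at -0.14, did not pass.

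Genes of the proteins that carry and process histones and their transcripts went in both directions. Of 10 histone chaperones 4 were lower: Chaf1a (-3.30) and Chaf1b (-3.02), subunits of the assembly factor CAF-1, Asf1b (-4.35), which hands over new H3 and H4, and Nasp (-1.87). Cabin1, a partner of the replication-independent chaperone HIRA, was higher (1.07). Of 15 tested genes of the histone locus body and of histone pre-mRNA processing 4 were lower and 1 was higher, near the 17.8% and 12.4% of all genes. Median centring left 2 lower, and quantile normalization 3 lower and 2 higher. Among them Srrt (-1.35) and Ncbp1 (-0.75) act with the RNA cap, Eri1 (-1.04) trims histone mRNA ends, and Cstf2t (0.77) is a cleavage factor. The other lower gene was Slbp, the stem-loop binding protein, named here after its values were seen, at -0.97 ± 0.31 (adjusted p 0.0497, limma). The call of Ncbp1 was lost under median centring and quantile normalization, and without labelled PU.1 cKO replicate 1 (-0.57), 2 (-0.88) or 3 (-0.79) or labelled control replicate 1 (-0.75) or 3 (-0.65). The call of Eri1 was lost without labelled PU.1 cKO replicate 1 (-0.99), 2 (-1.05) or 3 (-1.07) or labelled control replicate 1 (-1.01), and that of Cstf2t without labelled PU.1 cKO replicate 3 (0.75). Npat, the coactivator of histone transcription, lay at 0.35 and did not pass. Each list was counted gene by gene, with no test over the list.

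**Figure D3:**
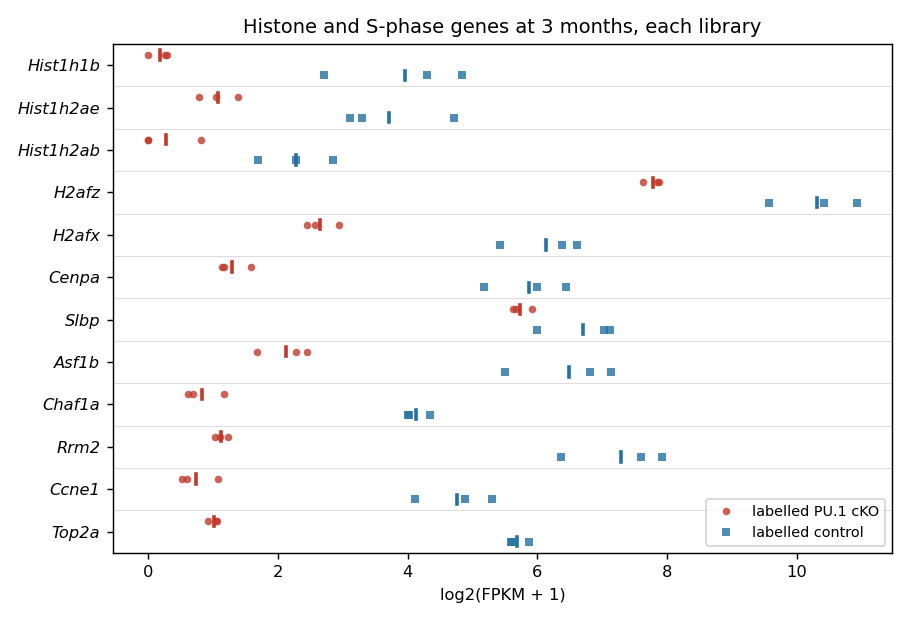
Level of 3 clustered histone genes, 3 histone variants and 6 genes of histone handling and S phase at 3 months, as log2(FPKM + 1) on the horizontal axis, with a point for each library and a bar for the group mean. In these genes every labelled PU.1 cKO library lies below every labelled control library.

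Markers of other cells moved with these differences, in both directions. The 4 border macrophage markers summed to 137 to 193 FPKM in labelled PU.1 cKO and 219 to 846 FPKM in labelled control, and Lyve1 and Pf4 were lower. The 4 monocyte markers summed to 6.30 to 31.2 FPKM in labelled PU.1 cKO and 40.1 to 166 FPKM in labelled control, and Fn1 was lower. The 3 neutrophil markers found summed to 37.5 to 217 FPKM in labelled PU.1 cKO and 68.9 to 8986 FPKM in labelled control, with none past the test. The sum of the 6 astrocyte markers went the other way, at 63.1 to 71.4 FPKM in labelled PU.1 cKO and 15.4 to 31.2 FPKM in labelled control. Slc1a3 was higher (2.36), but the median log2 difference of the 4 astrocyte markers tested was -0.32. Aldh1l1 lay at -0.83 with no overlap between the groups and did not pass (adjusted p 0.0569, limma). The 6 lymphocyte markers summed to 50.6 to 66.9 FPKM in labelled PU.1 cKO and 12.1 to 20.5 FPKM in labelled control, mostly from Cd79b. Cd79b was the only lymphocyte marker that reached the test and was higher (1.85), while the T-cell gene Cd3e was at 0 in every library. The B-cell genes Cd79a and Ms4a1 averaged under 1 FPKM, and which cells gave the Cd79b signal was not tested. The 5 endothelial markers summed to 16.8 to 18.5 FPKM in labelled PU.1 cKO and 5.65 to 16.1 FPKM in labelled control, with Pecam1 higher (1.35). Of the oligodendrocyte markers Mag was higher (1.18), and their sums overlapped, as did those of the neuronal and erythroid markers. No neuronal or erythroid marker passed. Of 12 immediate-early and heat-shock genes, Nr4a1 was lower (-1.20) and none was higher. The part of any of these in the histone differences was not tested. In RNA of sorted pools, fewer cells with histone transcripts and less histone RNA per cell cannot be told apart.

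Neighbouring genes did not always move together. In the RefSeq annotation, 9 pairs of H2A and H2B members lie next to each other and are transcribed away from each other, and the promoter windows of each pair share 220 to 279 bases. In only 1 pair, Hist1h2ae and Hist1h2bg, were both genes tested at 3 months. Their windows share 279 bases, so the Hist1h2ae sequence printed above covers nearly all of the Hist1h2bg promoter on the other strand. Hist1h2ae had a log2 difference of -2.64, while Hist1h2bg had 1.94, 3.05 and 0.977 FPKM in labelled PU.1 cKO libraries, against 0.446, 0.740 and 1.20 FPKM in labelled control libraries (0.70 ± 0.34, adjusted p 0.159, limma). Hist2h2ac and Hist2h2be, also neighbours, were both lower, at -0.96 and -0.92. Hist1h2ac, the neighbour of Hist1h2bc, lay at 0.15 with overlapping groups, while Hist1h2bc lay at -1.08. Few fragments stand behind 2 of these genes. For Hist1h2ac they were an estimated 3, 4 and 1 in labelled PU.1 cKO and 0, 3 and 6 in labelled control. For Hist1h2bg they were 4, 7 and 2 against 1, 2 and 3.

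At 4.5 months, the 2 members past the threshold in CK-p25 over CK with higher values were Hist1h1c and Hist1h2bc, and Hist1h1e was lower. That is 2 higher and 1 lower of 14 tested members, against 17.6% higher and 13.7% lower among all 10894 genes. The median log2 difference was -0.09 over the members and 0.00 over all genes to 2 decimals. The H2B sum separated the groups, at 80.6, 79.3 and 44.5 FPKM in CK-p25 libraries against 30.7, 34.0 and 35.0 FPKM in CK libraries. The H1 sum overlapped, at 22.0 to 26.2 FPKM in CK-p25 and 15.3 to 22.4 FPKM in CK.

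Hist1h1c, a linker histone gene, had 14.1, 15.9 and 21.1 FPKM in CK-p25 libraries, against 8.58, 6.77 and 9.37 FPKM in CK libraries. The log2 difference was 0.96 ± 0.16 (adjusted p 0.00274, limma) and the groups did not overlap. Without CK-p25 replicate 3, the library of another run, it was 0.80 with an adjusted p of 0.00266 (limma). Hist1h2bc, the leading H2B gene, had 70.1, 71.8 and 37.4 FPKM in CK-p25, against 24.6, 28.1 and 28.7 FPKM in CK. Its log2 difference was 1.06 ± 0.23 (adjusted p 0.00934, limma), and 1.36 without CK-p25 replicate 3, which was the lowest of its group. Both calls held without any 1 library.

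Markers of other cells also moved in the 4.5-month set. The astrocyte markers summed to 90.0 to 185 FPKM in the CK-p25 PU.1 cKO libraries, 84.9 to 298 FPKM in CK-p25 libraries and 47.2 to 66.1 FPKM in CK libraries. Gfap, a marker of reactive astrocytes, was higher in CK-p25 (4.02) and in CK-p25 PU.1 cKO (4.17), each over CK, and Aldh1l1 was higher in CK-p25 PU.1 cKO over CK (1.31). The monocyte markers summed to 34.7 to 51.1 FPKM in the CK-p25 PU.1 cKO libraries, 15.9 to 30.7 FPKM in CK-p25 libraries and 3.87 to 13.4 FPKM in CK libraries, with Fn1 higher in CK-p25 (2.17) and in CK-p25 PU.1 cKO (3.63). Of the endothelial markers, Flt1 was higher (2.17 in CK-p25 and 2.42 in CK-p25 PU.1 cKO) and Pecam1 was lower (-2.29 and -2.75). The oligodendrocyte gene Cnp was higher in CK-p25 (0.39). In CK-p25 PU.1 cKO over CK the erythroid gene Hba-a2 was higher (2.85) and Cd79b was lower (-1.95). The 4 tested lymphocyte markers, Cd79b among them, had a median log2 difference of 1.30 in that comparison. The lymphocyte sum was 3.34 to 43.2 FPKM in CK-p25 PU.1 cKO, 19.3 to 23.1 FPKM in CK-p25 and 28.1 to 33.7 FPKM in CK. No lymphocyte marker passed in CK-p25 over CK. No neuronal, border macrophage or neutrophil marker passed in the 4.5-month comparisons. Of the 7 microglia markers 4 were lower and 1 was higher in CK-p25, and 5 were lower in CK-p25 PU.1 cKO, each over CK. The part of these cells in the histone differences was not tested.

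Hist1h1e, another linker histone gene, had 8.13, 3.96 and 3.82 FPKM in CK-p25 libraries, against 11.7, 7.48 and 10.8 FPKM in CK libraries. The groups overlapped, and the log2 difference of -0.85 ± 0.27 just passed (adjusted p 0.0416, limma). The call was lost without CK replicate 1 (log2 difference -0.74) or 3 (-0.79), without CK-p25 replicate 2 (-0.71) or 3 (-0.69), and without any 1 of the CK-p25 PU.1 cKO libraries (-0.85 each), which enter only through the shared spread. Without CK-p25 replicate 1 it was -1.15. Hist1h1e thus lay lower where Hist1h1c lay higher.

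The other abundant members did not pass in CK-p25 over CK. Hist3h2a had 29.3, 19.8 and 29.5 FPKM in CK-p25 libraries, against 33.2, 38.4 and 38.4 FPKM in CK libraries (log2 difference -0.49 ± 0.18, adjusted p 0.0722, limma), and was past the threshold without CK-p25 replicate 3 (-0.58). Hist1h2bg had 2.80, 2.20 and 1.80 FPKM in CK-p25, against 1.24, 1.53 and 1.58 FPKM in CK (0.41 ± 0.16, adjusted p 0.0841, limma), and was past it without that library too (0.51). Hist1h4d had 31.0, 17.1 and 6.48 FPKM in CK-p25, against 28.3, 28.7 and 36.6 FPKM in CK. Its CK-p25 libraries ranged widely, with replicate 3 the lowest. The log2 difference was -0.97 ± 0.45 (adjusted p 0.134, limma). It was -0.41 without CK-p25 replicate 3, and -1.46 and past the threshold without CK-p25 replicate 1.

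The H3 sum stayed low at 4.5 months. It was 2.96, 3.01 and 2.56 FPKM in the CK-p25 PU.1 cKO libraries, 2.40, 1.62 and 0.685 FPKM in CK-p25 libraries and 1.96, 0.167 and 1.86 FPKM in CK libraries. Among the H3 genes Hist1h3d had the highest mean, with 1.21, 0.502 and 0.950 FPKM in the CK-p25 PU.1 cKO libraries, 1.13, 0.866 and 0.445 FPKM in CK-p25 and 0.461, 0 and 0.685 FPKM in CK. Hist1h1b, the gene with the lowest 3-month difference, was under the filter here. It had 1.05, 0.850 and 0.725 FPKM in the CK-p25 PU.1 cKO libraries, 1.56, 0.705 and 0.227 FPKM in CK-p25 and 0.547, 0.253 and 0.436 FPKM in CK. Those are an estimated 2 to 19 fragments per library.

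Further members were measured at low levels in all 3 groups. Among the H2A genes, Hist1h2ae had 1.61, 1.84 and 1.34 FPKM in the CK-p25 PU.1 cKO libraries, 1.92, 0.881 and 1.32 FPKM in CK-p25 libraries and 1.82, 1.12 and 1.31 FPKM in CK libraries. The groups overlapped throughout, unlike at 3 months. Hist2h2ac had 1.57, 0.570 and 1.26 FPKM in the CK-p25 PU.1 cKO libraries, 1.10, 0.787 and 0.759 FPKM in CK-p25 libraries and 1.05, 0.753 and 3.31 FPKM in CK libraries, with CK replicate 3 the highest. Among the H4 genes, Hist1h4i had 1.56, 2.27 and 3.10 FPKM in the CK-p25 PU.1 cKO libraries, 1.70, 2.09 and 2.34 FPKM in CK-p25 libraries and 1.62, 1.25 and 1.03 FPKM in CK libraries. Every CK-p25 library lay above every CK library for this gene, yet its log2 difference of 0.41 did not pass (adjusted p 0.165, limma). Hist1h4c had 1.21, 4.10 and 1.11 FPKM in the CK-p25 PU.1 cKO libraries, 2.55, 0.607 and 0.778 FPKM in CK-p25 libraries and 3.23, 2.32 and 0.900 FPKM in CK libraries, with wide overlap. The linker gene Hist1h1d stayed between 0.608 and 1.29 FPKM in all 9 libraries. The H3 gene Hist1h3e had 1.36, 1.89 and 0.357 FPKM in the CK-p25 PU.1 cKO libraries, 0.547, 0.391 and 0 FPKM in CK-p25 libraries and 0.867, 0 and 0.580 FPKM in CK libraries. Another H3 gene, Hist2h3b, was at 0.797 FPKM or below in every library. On detection alone, 2 members separated CK-p25 PU.1 cKO from CK: Hist1h2bb had no signal in the 3 CK-p25 PU.1 cKO libraries and was above 0 in all 3 CK libraries, and Hist1h4k the other way round. The Hist1h2bb pattern held for 32 of the 23951 genes (0.134%) and the Hist1h4k pattern for 79 (0.33%).

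**Figure D4:**
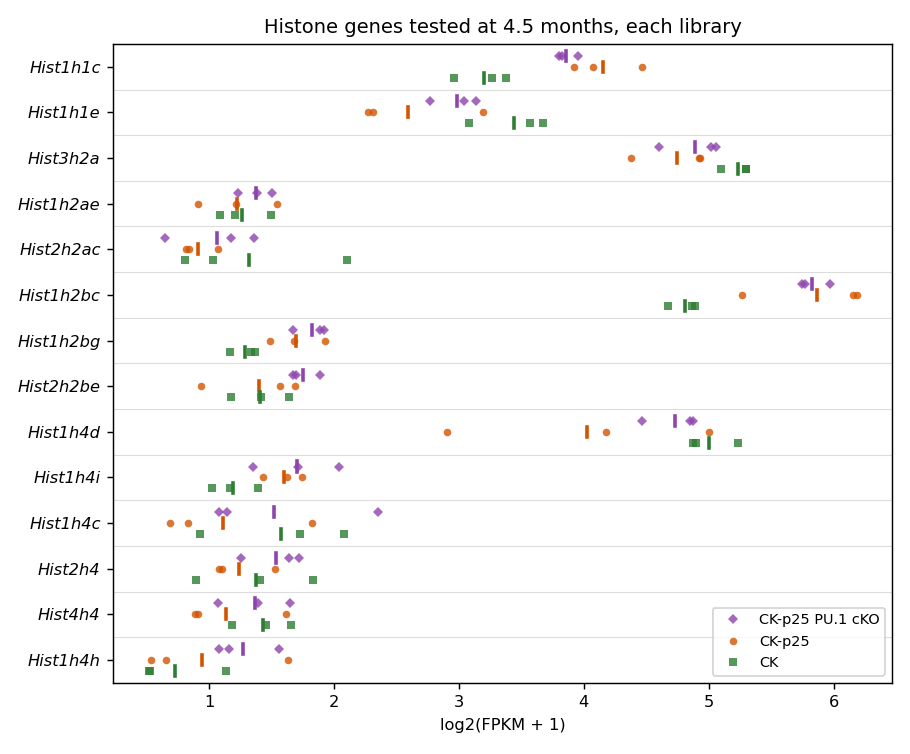
Level of each of the 14 histone genes tested at 4.5 months, as log2(FPKM + 1) on the horizontal axis, with a point for each library and a bar for the group mean. Hist1h1c and Hist1h2bc lie higher in each of the CK-p25 PU.1 cKO and CK-p25 libraries than in the 3 CK libraries, and the CK-p25 libraries of Hist1h4d spread from 6.48 to 31.0 FPKM.

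No member passed the threshold in CK-p25 PU.1 cKO over CK-p25. In this comparison limma called 0% of the 10894 genes higher and 0% lower, and 671 genes had an unadjusted p under 0.05, with no member among them. The smallest unadjusted p of the members was 0.101, for Hist1h1c, with 14.5, 13.2 and 12.9 FPKM in the CK-p25 PU.1 cKO libraries, against 14.1, 15.9 and 21.1 FPKM in CK-p25 libraries. Its log2 difference was -0.29, with a 95% interval of -0.66 to 0.07. Hist2h2be had 2.70, 2.18 and 2.24 FPKM in the CK-p25 PU.1 cKO libraries and 1.97, 2.22 and 0.917 FPKM in CK-p25, a difference of 0.35 with an interval of -0.16 to 0.87. Hist1h4d had 21.1, 28.4 and 27.7 FPKM in the CK-p25 PU.1 cKO libraries, against the wide CK-p25 values above, a difference of 0.70 with an interval of -0.32 to 1.73. For Hist1h2bc, the member with the largest rise in CK-p25 over CK, the interval was -0.56 to 0.49. The adjusted p of Hist1h1c, Hist2h2be and Hist1h4d was 0.745 in each case (limma).

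In CK-p25 PU.1 cKO over CK, 3 of the 14 members were higher and none was lower, against 17.8% higher and 13.3% lower among all 10894 genes. This comparison shares its CK libraries with CK-p25 over CK. Hist1h2bc had 53.6, 61.6 and 52.7 FPKM in the CK-p25 PU.1 cKO libraries, against 24.6, 28.1 and 28.7 FPKM in CK libraries (1.02 ± 0.23, adjusted p 0.0107, limma). The values of each group lay close together, and the call held without any 1 library. Hist1h1c had 14.5, 13.2 and 12.9 FPKM in the CK-p25 PU.1 cKO libraries, against 8.58, 6.77 and 9.37 FPKM in CK (0.66 ± 0.16, adjusted p 0.0142, limma). It did not pass without CK-p25 PU.1 cKO replicate 1 (0.62) or CK replicate 2 (0.54). Hist1h2bg, an H2B gene, had 2.78, 2.70 and 2.19 FPKM in the CK-p25 PU.1 cKO libraries, against 1.24, 1.53 and 1.58 FPKM in CK (0.54 ± 0.16, adjusted p 0.0320, limma). It fell short without CK-p25 PU.1 cKO replicate 1 (0.49) or 2 (0.51), or CK replicate 1 (0.47), 2 (0.56) or 3 (0.58). Hist1h1e, at -0.46 ± 0.27, and Hist3h2a, at -0.34 ± 0.18, did not pass.

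**Figure D5:**
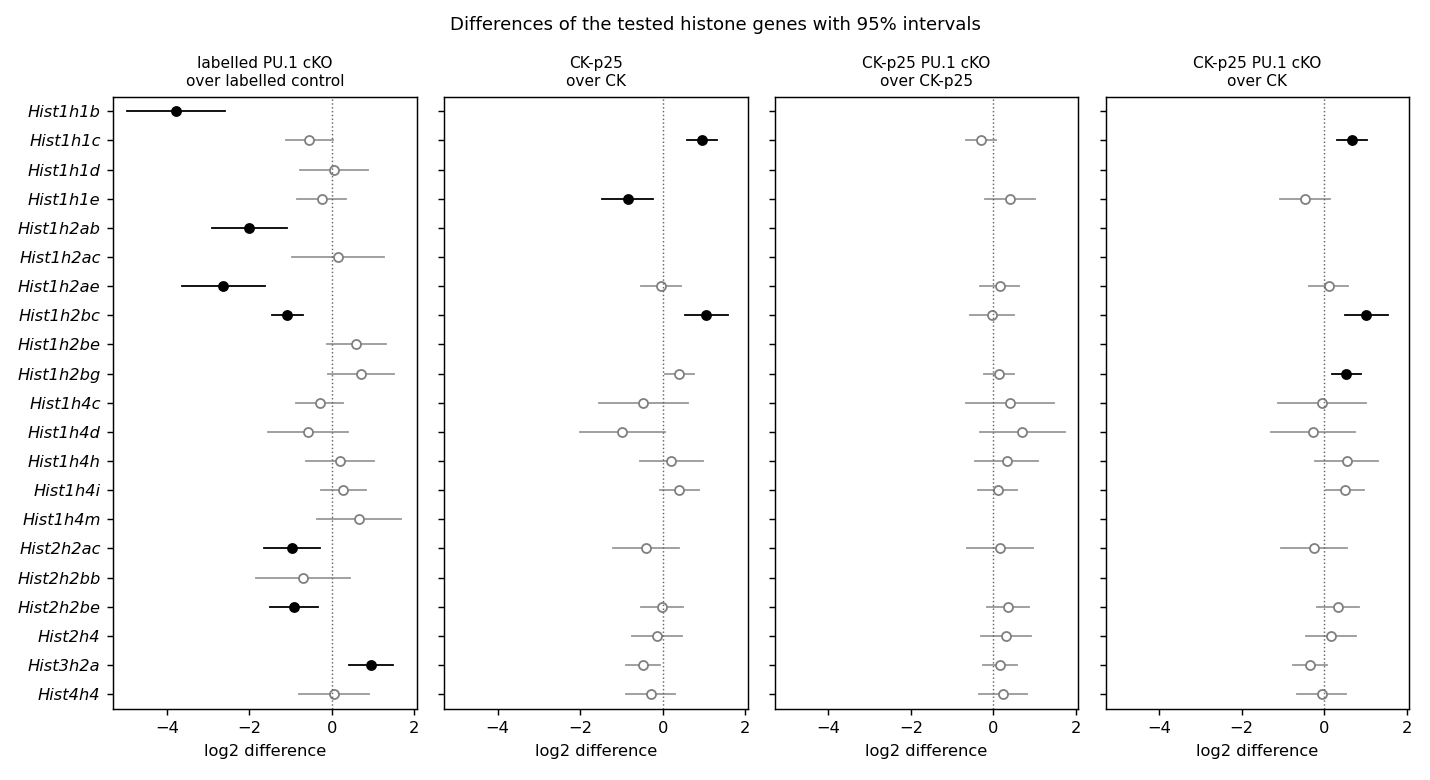
Log2 difference (horizontal axis) of each tested histone gene in the 4 comparisons, with its 95% interval from limma; filled points passed an adjusted p of 0.05 and blank rows were not tested in that table. At 3 months 6 filled points lie below 0 and 1 above, and no point is filled for CK-p25 PU.1 cKO over CK-p25.

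Of the pathway lists, the S-phase genes in CK-p25 PU.1 cKO over CK had the most calls at 4.5 months. There 6 of 14 were lower and 2 were higher, against 13.3% and 17.8% of all genes. The 4 with the smallest p were Pcna, the replication clamp, at 0.55, E2f1, a transcription factor of S-phase entry, at 0.82, Ccna2 at -0.66 and Mcm2 at -0.48, and the call of Mcm2 was lost without CK replicate 2 (-0.44). In CK-p25 over CK, 2 of 14 were higher (Pcna at 0.47 and E2f1 at 0.65) and 2 were lower (Ccna2 at -0.64 and Mcm2 at -0.43), near the 17.6% and 13.7% of all genes. Of these 4, only Ccna2 passed without any 1 library. The call of Pcna was lost without CK replicate 2 (0.42), and that of Mcm2 without CK replicate 1 (-0.39) or 2 (-0.39) or CK-p25 replicate 1 (-0.38) or 2 (-0.39). That of E2f1 was lost without any 1 of the 3 CK and 3 CK-p25 libraries (0.57 to 0.72).

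The other lists had 0 to 2 calls each. Of 9 tested histone genes outside the clusters, H2afz (0.73) and H2afj (0.70) were higher in CK-p25 over CK, and H2afj (0.81) in CK-p25 PU.1 cKO over CK. Under quantile normalization H2afz was at 0.35 in CK-p25 over CK and did not pass, and 1 gene of the list was higher and 1 lower. The H2afz call was also lost without CK replicate 2 (0.67) or 3 (0.71), and that of H2afj in CK-p25 without CK replicate 1 (0.69) or 2 (0.66). Of 9 chaperones, Daxx, which places the variant H3.3, was higher in CK-p25 (0.85) and in CK-p25 PU.1 cKO (0.70), and fell short in CK-p25 PU.1 cKO over CK with its replicate 1 (0.65) or 3 (0.64) or CK replicate 2 (0.68) or 3 (0.62) left out. Ubn1, a partner of HIRA, was lower in CK-p25 (-0.31), but did not pass without CK replicate 1 (-0.29), 2 (-0.35) or 3 (-0.30) or CK-p25 replicate 1 (-0.31). Asf1a, a carrier of H3 and H4, was lower in CK-p25 PU.1 cKO (-0.64), but did not pass without any 1 library of that group (-0.69 to -0.61) or CK replicate 1 (-0.55) or 3 (-0.64). Of 15 histone processing genes, Cstf2t (-0.75) was lower in CK-p25, and that call held without any 1 library. Ncbp1 (-0.27) was lower in CK-p25 PU.1 cKO, but passed in only 1 of 9 fits with a library left out (-0.31 to -0.21). None of these lists had a gene past the threshold in CK-p25 PU.1 cKO over CK-p25. Of 11 tested immediate-early and heat-shock genes, Atf3 was higher in CK-p25 (2.34) and in CK-p25 PU.1 cKO (1.82), each over CK. Hspa1b (1.88) was higher in CK-p25 PU.1 cKO over CK. The part of these stress genes in the histone differences was not tested.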

How the data were processed

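RNA of sorted hippocampal microglia was measured in 15 libraries. The labels' protocols name the SMART-Seq v4 and Nextera XT kits, which do not mark strand. The authors deposited FPKM values in 2 tables. TopHat, Bowtie, Cufflinks 2.0.0 and mm9 are named in the submitters' processing notes. Columns were matched to samples by the description in the labels. Since FPKM values are no counts, none of the count models applies. Values were analysed as log2(FPKM + 1) for genes averaging 1 FPKM or more in a table (10845 genes at 3 months, 10894 at 4.5 months). On this scale the folds of weakly expressed genes come out too small. limma 3.58.1 in R 4.3.3 with a mean-variance trend was used, two-sided, with Benjamini-Hochberg adjustment over all tested genes and a threshold of 0.05. The 6 libraries at 3 months were fitted together, and the 9 at 4.5 months in 1 model. The fit was tested on simulated data with 200 changed genes.

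The value of 1 fragment was estimated from whole-number ratios among low values. Of members above 0 in at least 2 libraries, 35 of 43 (81.4%) at 3 months and 39 of 49 (79.6%) at 4.5 months came out whole within 0.08. The estimated fragments may be off by a common factor, and no interval was drawn from them.

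The members, gene lists and tests were chosen with earlier results of these data known. Named members are those past the threshold in any comparison, the 3 highest of each type per table, and the 3 with the smallest p where none passed. Of each list, up to 4 genes with the smallest p among those past the threshold are named. Alternatives were pseudocounts of 0.1 and 0.5, no filter, a filter of 5 FPKM, quantile normalization, median centring, no trend, a replicate block, only the compared libraries, and each library left out in turn. The labels state no pairing by replicate number, and the main fit used none. The 4 chromatin immunoprecipitation samples were not analysed here. Promoters are from RefSeq, GRCm38.p6, and 66 of the 67 members matched 1 RefSeq gene by an older symbol.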

Additional observations from a re-analysis of the deposited data

How the results depend on the processing

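At 3 months the count of members lower in labelled PU.1 cKO was 6, was 3 with a filter of 5 FPKM (7 members tested) and ran from 4 to 7 with each library left out. With no filter it was also 6, but 4 of the original 6 did not pass. The count higher was 1, was 0 with no filter, and ran from 0 to 1 with each library left out. In CK-p25 over CK the count lower was 1. It was 0 with no filter, 0 under the replicate block, 0 with only the compared libraries and 2 under quantile normalization, and ran from 0 to 2 with each library left out. In CK-p25 PU.1 cKO over CK the count higher was 3 and ran from 1 to 3, with 1 without CK replicate 2. The cause was not tested.

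Same-numbered replicates had correlations of -0.0487 to 0.166 in the 3-month table and -0.0156 to 0.131 in the 4.5-month table. Replicates with different numbers had correlations of -0.264 to 0.120 and -0.216 to 0.154. The ranges overlapped, and so few libraries per group cannot settle whether the numbers pair the samples. With the replicate block the other member counts kept within 1.5 times.

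Quantile normalization turned Spi1 in CK-p25 over CK (-0.39) and Hist1h2bc in CK-p25 PU.1 cKO over CK-p25 (0.0046). Leaving out a library turned Hist1h1e at 3 months (-0.43 to 0.0049). In CK-p25 over CK it turned Hist1h2ae (-0.20 to 0.12), Hist2h2be (-0.16 to 0.22) and Spi1 (-0.10 to 0.16). In CK-p25 PU.1 cKO over CK-p25 it turned Hist1h2ae (-0.0079 to 0.31), Hist1h2bc (-0.34 to 0.12) and Hist3h2a (-0.033 to 0.29). No turned value passed the threshold.

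Scaling changed the split of calls over all genes. The share of calls that were higher at 3 months was 41.1% as deposited and 53.0% under quantile normalization, where the median of all genes lay at 0.09 in place of -0.03. It was 56.3% against 45.6% in CK-p25 over CK, and 57.2% against 45.9% in CK-p25 PU.1 cKO over CK. Depth is unknown, so absence of a member at 0 FPKM cannot be told from low coverage.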
